A study of Caenorhabditis elegans with 2 samples.

Results

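The nhr genes of Caenorhabditis elegans are the protein-coding genes whose symbol begins with nhr-, the name given to nuclear hormone receptors. There were 269 of them among 19973 protein-coding genes on the 6 nuclear chromosomes of the assembly WBcel235 (ce11), and 167 of the 269 (62.1%) lay on chromosome V, which held 25% of all protein-coding genes. Binding of the C2H2 zinc finger protein LSY-2 was mapped in whole L2 larvae by chromatin immunoprecipitation and sequencing (ChIP-seq), with 2 biological replicates of 1 group. The animals were mixed-sex pools of strain OP367, which carries unc-119(tm4063) and the transgene wgIs367, from which LSY-2 is expressed with GFP and FLAG at its C terminus. The same line gave both replicates, no strain without the tag was analysed here, and all values are mixtures over every cell that expressed the transgene. An nhr gene was called bound when the summit of a peak in the authors' optimal list lay between 1000 bp upstream and 200 bp downstream of its annotated 5′ end, a stretch called the promoter here.

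Nuclear hormone receptors are transcription factors that bind DNA through a pair of zinc fingers, each holding zinc with cysteines, and that can bind small lipophilic ligands through a separate domain. A few nhr genes are relatives of receptors found across animals and act in molting and development, while most descend from an ancestor resembling the mammalian hepatocyte receptor HNF4. Many nhr genes stand near other copies on chromosome V. LSY-2 itself is best known from the pair of ASE taste neurons, where it helps to make the left and right cell differ. The zinc finger spacing of nuclear receptors was found in the coding sequence of 255 of the 269 nhr genes, in 37 of 37 bound and in 218 of 232 unbound genes. The spacing was not counted in all protein-coding genes, so these counts have no background share.

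Sequences at 7 of the promoter summits are given as examples: the 3 strongest on V, 2 that hold both of the short motifs described further on, 1 that lies inside a tRNA gene, and the one at nhr-25. Each runs 5′ to 3′ on the + strand of the RefSeq genome WBcel235 (ce11) and covers 101 bp centred on the summit, except that the stretch at nhr-47 stops where the gene begins. Capitals mark GAGAGA or ACGCAG, or their reverse complements TCTCTC and CTGCGT. The positions are chrV:5505190-5505252 for nhr-47, chrV:5791009-5791109 for nhr-142, chrV:11573005-11573105 for nhr-68, chrX:17513699-17513799 for nhr-1, chrII:2800944-2801044 for nhr-119, chrX:15742022-15742122 for nhr-255 and chrX:13008348-13008448 for nhr-25.
nhr-47: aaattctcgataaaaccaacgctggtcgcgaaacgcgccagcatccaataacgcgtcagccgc
nhr-142: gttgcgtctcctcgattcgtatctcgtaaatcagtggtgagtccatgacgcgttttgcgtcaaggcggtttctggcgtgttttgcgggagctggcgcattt
nhr-68: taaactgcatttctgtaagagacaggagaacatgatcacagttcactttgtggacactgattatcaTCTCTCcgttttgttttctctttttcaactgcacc
nhr-1: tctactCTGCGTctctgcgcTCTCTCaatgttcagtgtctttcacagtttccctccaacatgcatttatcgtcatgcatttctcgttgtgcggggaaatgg
nhr-119: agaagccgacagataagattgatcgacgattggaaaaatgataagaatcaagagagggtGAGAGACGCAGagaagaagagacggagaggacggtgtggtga
nhr-255: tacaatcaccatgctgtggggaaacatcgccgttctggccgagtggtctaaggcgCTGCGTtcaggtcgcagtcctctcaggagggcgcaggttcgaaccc
nhr-25: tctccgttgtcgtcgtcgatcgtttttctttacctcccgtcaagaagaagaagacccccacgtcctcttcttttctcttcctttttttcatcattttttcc

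The optimal list held 6312 peaks, and the relaxed list of each replicate, which also takes in background, held 30000. Every peak carried a score from the authors' peak caller on a scale that the sources used here do not give, so scores rank peaks within a list and measure no amount of binding. No read counts were at hand, the depth of the libraries is unknown, and all intervals are exact Clopper-Pearson 95% intervals that cover the counting of genes only. Chromosome V held 865 (13.7%) of the optimal peaks and 20.9% of the length of the chromosomes.

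LSY-2 had a promoter summit at 37 of the 269 nhr genes (13.8%, interval 9.87 to 18.5), against 19.2% of all protein-coding genes. The share was 14 of 167 on chromosome V (8.38%, interval 4.66 to 13.7) against 23 of 102 on the other chromosomes (22.5%, interval 14.9 to 31.9), and these intervals do not overlap. The same direction held for all protein-coding genes, of which 11.5% were bound on V and 21.8% elsewhere. The interval of the nhr genes on V takes in the share of all genes on V, and that of the nhr genes elsewhere takes in the share of all genes there. No test of these shares was made, since neighbouring genes are not independent.

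Among the single chromosomes, X stood apart, though it was picked from the 6 after its values were seen. On X, 9 of 23 nhr genes were bound (39.1%, interval 19.7 to 61.5), against 14.2% of all genes on X, and these were nhr-1, nhr-32, nhr-48, nhr-255, nhr-35, nhr-17, nhr-3, nhr-25 and nhr-14. Their strongest promoter peaks scored 62.4 to 341. With a promoter of 500 bp upstream to 100 bp downstream, nhr-48, nhr-255 and nhr-3 were not bound. With the strongest 50% of optimal peaks, nhr-17, nhr-3, nhr-25 and nhr-14 were not. On chromosome III only nhr-9 of 8 nhr genes was bound (12.5%, interval 0.316 to 52.7), against 31.3% of all genes there. The shares were 5 of 23 on I (21.7%) against 28.2% of all genes, 4 of 15 on II (26.7%) against 18.9%, and 4 of 33 on IV (12.1%) against 17.8%, each with the share of all genes inside the interval of the nhr genes. The nhr genes of X were also long, with a median of 4483 bp against 2548 bp for all protein-coding genes of X. The part of gene length in the share was not tested.

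**Figure D1:**
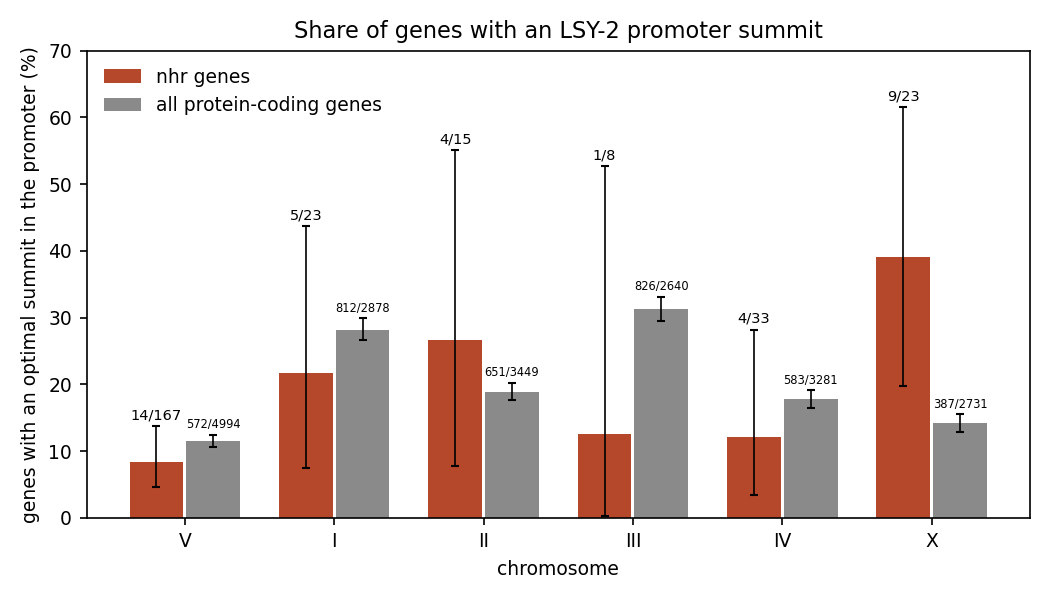
Share of nhr genes (left bar of each pair) and of all protein-coding genes (right bar) with an optimal LSY-2 summit in the promoter, in percent, by chromosome. Lines are exact 95% intervals and the fractions give bound genes over genes. The nhr bar is the higher of the pair on II and X, and its interval leaves out the share of all genes only on X.

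Within chromosome V the 14 bound nhr genes lay in the left and middle sections. With the chromosome cut into 3 sections of equal length, 9 of 78 nhr genes were bound in the left section (11.5%, interval 5.41 to 20.8), against 9.97% of all genes there. In the middle section 5 of 41 were bound (12.2%, interval 4.08 to 26.2), against 16.4% of all genes. In the right section none of 48 nhr genes had an optimal promoter summit (interval 0 to 7.40). Of all genes there 7.43% had one (interval 6.21 to 8.81), and these intervals overlap. With a promoter of 2000 bp upstream to 500 bp downstream, nhr-70 and nhr-84 were bound in the right section, and without replicate 1 nhr-50 was. A stretch of 223858 bp from nhr-86 to nhr-228 (chrV:2061106-2284963), picked after its values were seen, held 5 of the 14 bound genes of V, nhr-86, nhr-184, nhr-56, nhr-182 and nhr-228. It holds 16 nhr genes in all, and of its 70 protein-coding genes 8 were bound, against 11.5% of all genes on V. The stretch was cut to begin and end at a bound nhr gene, so the 5 among the 8 say nothing about nhr genes there. The summits at nhr-86 and nhr-184 also lay in the promoters of lbp-9 and nstp-8, so the 8 genes are not 8 separate sites.

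The shares of nhr genes with and without a close neighbour of the family were also set side by side, with no test of whether V and the other chromosomes differ in this. On V, 121 of 167 nhr genes (72.5%) had the 5′ end of another nhr gene within 10 kb, and 10 of these 121 were bound (8.26%, interval 4.03 to 14.7) against 4 of 46 that stood alone (8.70%, interval 2.42 to 20.8). On the other chromosomes 29 of 102 (28.4%) had such a neighbour, and 1 of the 29 was bound (3.45%, interval 0.0873 to 17.8) against 22 of 73 that stood alone (30.1%). The exception was nhr-87, whose 5′ end lies 2776 bp from that of nhr-146 on IV. The median distance to the nearest other nhr gene was 3200 bp on V and 34456 bp elsewhere. Upstream gaps moved with the chromosome too: the median stretch between an nhr gene and its upstream neighbour was 1032 bp on V and 3422 bp elsewhere. Where the upstream neighbour pointed the other way, 8 of 56 nhr genes on V were bound (14.3%), against 6 of those with a neighbour on the same strand (5.41%). Elsewhere the counts were 12 of 51 (23.5%) and 11 of 51 (21.6%). Neither the split by close nhr neighbour nor that by strand was made for all protein-coding genes, so these counts have no background share. The part of gaps and neighbours in the lower share on V was not tested.

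The peaks at nhr promoters were weak beside those at the promoters of all bound genes, and close to the middle of the whole optimal list. The strongest promoter peak of a bound nhr gene had a median score of 113.9 (interval 79.4 to 137, n = 37) and a range of 58.4 to 577, while that of all 3831 bound genes had a median of 200 (interval 194 to 207) and reached 20472. Of the bound nhr genes 14 (37.8%) had a peak at or over the list median of 123, against 69.7% of all bound genes, and 5 (13.5%) had a peak among the first 1000, against 30.2%. The median was 101 for the 14 bound nhr genes on V (interval 68.8 to 466) and 119 for the 23 elsewhere (interval 75.9 to 148), so scores on and off V overlapped widely. For all bound genes the medians were 198 on V and 201 elsewhere.

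**Figure D2:**
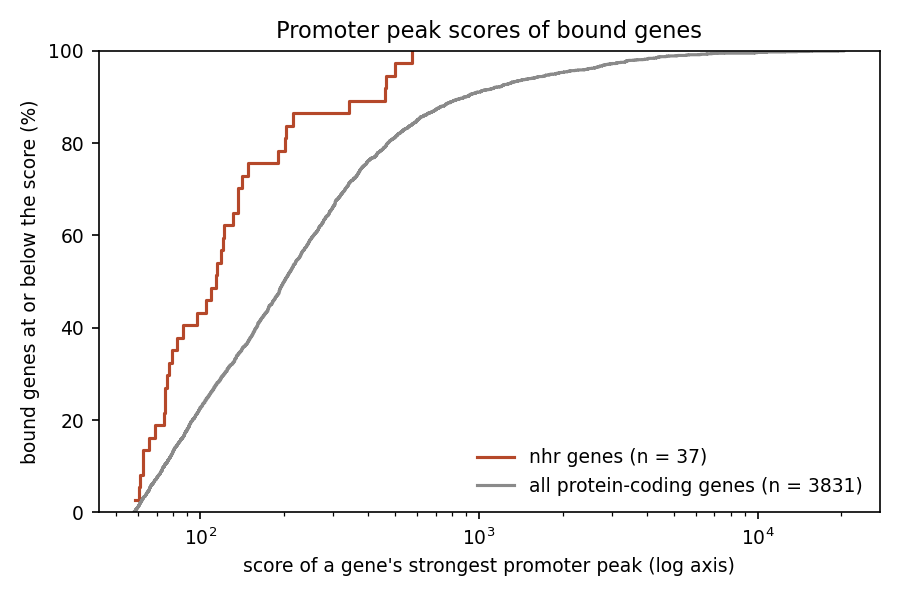
Cumulative share of bound genes, in percent, at or below each score of the strongest promoter peak (log axis), for nhr genes and for all protein-coding genes. The nhr curve lies to the left, with medians of 113.9 for nhr genes and 200 for all bound genes, and ends at 577.

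The strongest promoter peak of the family lay on V, at nhr-47, 13 bp upstream of its 5′ end and also in the promoter of dnj-19, which encodes a DnaJ chaperone. It scored 348 in replicate 1 and 228 in replicate 2, with a pooled score of 577 at rank 485. The peak at nhr-142 scored 275 and 219 in the replicates (pooled 499) and lay 506 bp upstream, nearer to the 5′ end of F44E7.9. The peak at nhr-68, which together with nhr-10 turns on the propionate shunt, an alternative route of propionate breakdown, scored 224 and 247 (pooled 466) and was likewise nearer to its neighbour, H12C20.7. All 3 lay between divergent genes, so a summit there cannot be given to 1 gene of the pair. No other nhr gene on V had a pooled score over 131.

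Off V the first place went to nhr-49, a HNF4-related regulator of fatty acid desaturation and breakdown. Its promoter peak, 347 bp upstream, scored 256 in replicate 1 and 204 in replicate 2 (pooled 461), and a second, weaker summit (pooled 114.2) lay in an intron, 192 bp upstream of the start of one of its shorter transcripts. The peak at nhr-1 scored 171 in each replicate (pooled 341) and lay 314 bp upstream. After these 5 genes the scores drop: nhr-119 had 120 and 101 in the replicates (pooled 216), nhr-32 had 113.9 and 88.7 (pooled 204) and nhr-48, a relative of the vitamin D and xenobiotic receptors of vertebrates, had 120 and 81.7 (pooled 202). The last of the 10 strongest were nhr-105, with 110 and 95.2 in the replicates (pooled 191), and nhr-255, with 81.8 and 65.7 (pooled 148). At all 10 the ranks in replicate 1, in replicate 2 and in the optimal list were at or above the middle rank of the optimal list, 3156.

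The other bound genes on V were, by falling pooled score, nhr-228 (131), nhr-154 (122), nhr-56 (113.9), nhr-158 (105), nhr-132 (97.6), nhr-135 (86.8), nhr-182 (82.4), nhr-184 (74.8), nhr-232 (68.8), nhr-44 (60.5) and nhr-86 (58.4). The replicate scores of the next strongest on V were 76.1 and 53.0 at nhr-228 and 68.7 and 61.3 at nhr-154. On the other chromosomes they were nhr-35, nhr-104, nhr-21, nhr-87, nhr-23, nhr-17, nhr-3, nhr-64, nhr-88, nhr-69, nhr-43, nhr-19, nhr-85, nhr-25, nhr-14 and nhr-9, with pooled scores between 60.9 and 141. Among these are nhr-14, which takes part in the response to iron shortage, and nhr-85, a relative of the insect receptor E75 that acts in developmental timing. The bound gene nearest the end of the optimal list was nhr-86 (58.4, rank 6274), and the unbound gene nearest to it was nhr-40, whose best relaxed promoter summit scored 57.7 at rank 6332 of the pooled list.

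**Figure D3:**
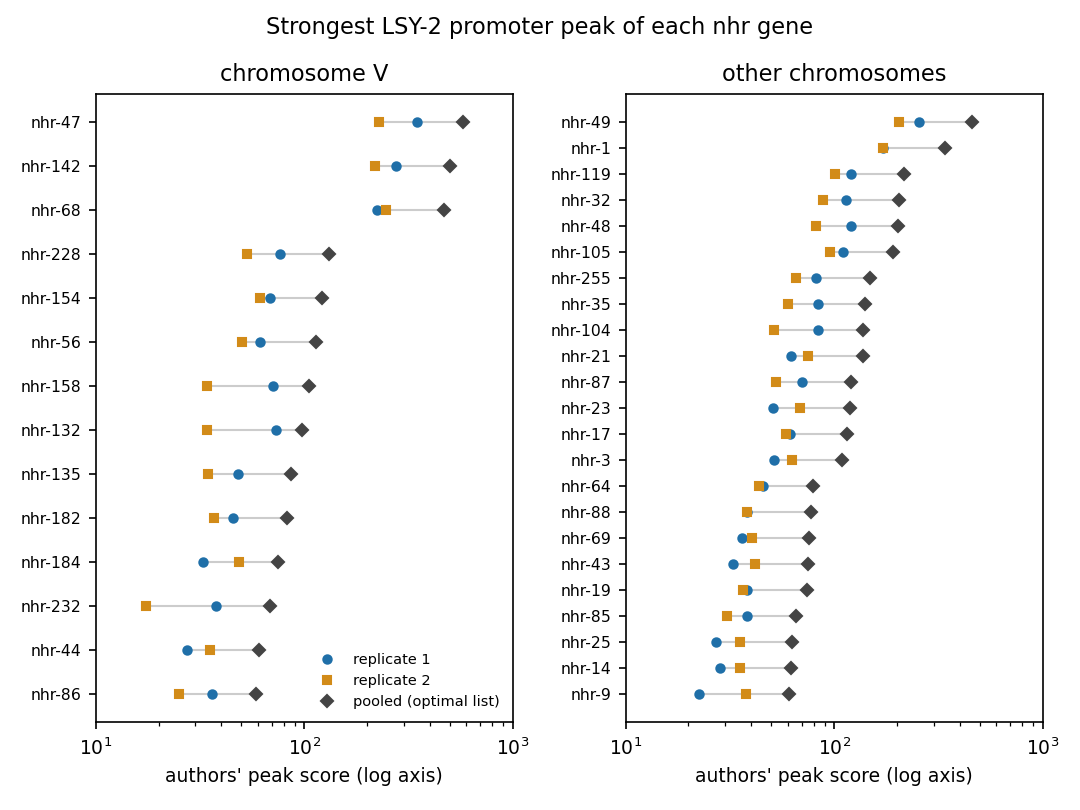
Score of the strongest optimal promoter peak of each of the 37 bound nhr genes (pooled, diamonds) with the scores of the matched summits in replicate 1 (circles) and replicate 2 (squares), on a log axis, for chromosome V at left and the other chromosomes at right. The genes nhr-47, nhr-142 and nhr-68 stand apart on V, with pooled scores of 466 to 577 against at most 131 for the other 11. Replicate 2 of nhr-232 (17.4) is the lowest value.

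Both replicates held a summit within 200 bp at each of the 38 optimal summits in nhr promoters, 2 of which belong to nhr-23. Of the 38, 30 (78.9%) had a nearest summit among the 6312 strongest in both replicates, against 84.9% of all promoter summits, and these were 10 of 14 on V and 20 of 24 elsewhere. Counting any of the 6312 strongest within 200 bp, nearest or not, adds nhr-232 on V and gives 31 (81.6%), against 85.9%. The optimal list was made from these same replicates, so this support is partly built in. Across the 38 summits the replicate scores had a Spearman correlation of 0.77, a description over sites that share both libraries.

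By position, 34 of the 38 summits lay upstream of the 5′ end and 4 downstream, at nhr-21, nhr-43, nhr-56 and nhr-104. The median distance upstream was 327 bp, against 234 bp for all genes. Farthest upstream inside the promoter was the summit of nhr-3, 952 bp upstream. Among unbound genes, nearest beyond the upstream edge were those of nhr-15, 1038 bp upstream on V (score 89.9), and nhr-8, 1089 bp upstream on IV (score 306). Nearest beyond the downstream edge were those of nhr-66, 258 bp downstream (score 63.4), and nhr-10, 293 bp downstream (score 99.7). The score at nhr-8 exceeds those of all but 5 bound nhr genes, and the gene encodes a receptor in the defence against toxins and in cholesterol balance. However, its upstream neighbour on the same strand ends only 154 bp before nhr-8, so this summit does not lie in the stretch between the genes. Of the 38 summits 6 (15.8%) also lay in the promoter of another protein-coding gene, all 6 on V, against 30.3% of all promoter summits. The neighbours were dnj-19, F44E7.9, H12C20.7, nstp-8 (shared with nhr-184), rop-1 (nhr-232) and lbp-9, which encodes a fatty acid-binding protein (nhr-86). For 35 of the 38 the nearest protein-coding 5′ end was the nhr gene's own.

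Non-coding genes stood at some of these sites. The summit of nhr-255 lay inside the tRNA gene ZK678.t1 (chrX:15742050-15742133, + strand), and 1 of 38 nhr summits (2.63%) had a tRNA gene within 200 bp, against 1.21% of all promoter summits. Annotated ncRNA genes lay within 200 bp of 6 of the 38 (15.8%) against 10.7%, and the summits of nhr-47, nhr-255, nhr-17, nhr-3, nhr-25 and nhr-14 lay inside one. Peaks have no strand, so a summit there can belong to either gene.

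The short sequences searched were chosen from earlier results on these peaks, on both strands, in the 101 bp around each summit, and a match is only a description. GAGAGA, read as TCTCTC on the other strand, occurred at 12 of 38 nhr summits (31.6%) against 22.7% of all promoter summits, and ACGCAG, read as CTGCGT, at 10 of 38 (26.3%) against 16.2%. The 2 can overlap, as at nhr-119, where the letters GAGAGACGCAG hold both. ACCGTA, read as TACGGT, was found at 0 of 38, against 8.81% of all promoter summits. The limit of 3 counts allows up to 7.89%, but it is narrower than the exact intervals used elsewhere. It therefore does not show that ACCGTA was rarer at nhr summits. In the weaker part of the list, ranks past 3156, which holds 24 of the 38 nhr summits, ACCGTA occurred at 2.52% of all promoter summits. Of the sequences printed above, those of nhr-1 and nhr-119 hold both GAGAGA and ACGCAG, that of nhr-68 holds GAGAGA only and that of nhr-255 holds ACGCAG only. Those of nhr-142 and nhr-25 hold neither, and neither does the full 101 bp at nhr-47.

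The receptor nhr-23 is a relative of the insect receptor DHR3 and of the vertebrate ROR receptors, and it is needed for molting. The gene lies at chrI:7214745-7221299 on the + strand and has 6 annotated transcripts with different 5′ ends. It was the only nhr gene with 2 optimal promoter summits, 896 bp and 694 bp upstream. The farther one scored 50.7 in replicate 1 and 68.6 in replicate 2 (pooled 119, rank 3247), and the nearer one 31.0 in replicate 2 (pooled 71.0, rank 5246). Replicate 1 held a single summit that matched both, with its score of 50.7, so only replicate 2 resolved them. A further optimal summit lay in an intron, 2664 bp downstream of the 5′ end and 625 bp past the start of a shorter transcript, with 32.7 and 34.1 in the replicates (pooled 62). From 5000 bp upstream to 1000 bp past the gene, the relaxed lists held 18 summits in replicate 1 and 15 in replicate 2.

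For nhr-25, a relative of FTZ-F1 and SF-1 that acts in molting and in epidermal and vulval development, 3 weak peaks were listed, and only 1 of them lay in the promoter. The gene lies at chrX:13008493-13013964 on the + strand. The promoter summit, 95 bp upstream, scored 27.1 in replicate 1 and 35.5 in replicate 2 (pooled 62.5, rank 5891) and lay inside the ncRNA gene F11C1.12 on the other strand. The others were 3803 bp upstream (37 and 29.7, pooled 68.4) and 1303 bp downstream in an intron (41.7 and 33.6, pooled 70.6). All 3 pooled scores lie in the weaker part of the list, and replicate 1 ranked the promoter summit 8051, outside its strongest 6312.

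By contrast nhr-67, a relative of the tailless receptor that acts in the anchor cell and in the identity and asymmetry of the ASE neurons, had no summit of any list at or near it. The gene lies at chrIV:11169748-11174791 on the + strand with 1 annotated transcript. From 5000 bp upstream to 1000 bp past the gene there were 0 summits in replicate 1, 0 in replicate 2 and 0 in the pooled relaxed list. The nearest optimal summit lay 9656 bp from the 5′ end, with a score of 541. Since the peaks are a mixture over the whole animal, binding in a few cells may not appear as a peak, and its absence in ASE neurons was not tested.

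**Figure D4:**
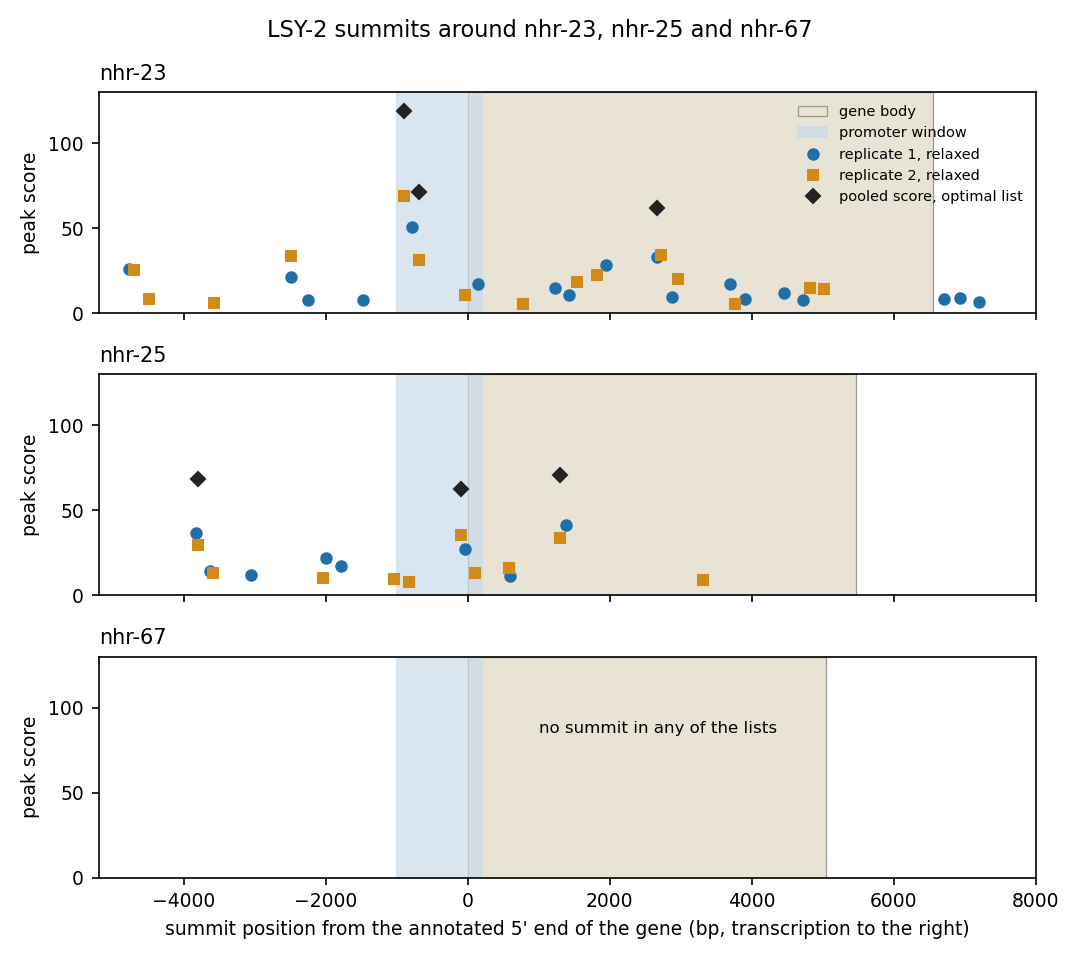
Summits around nhr-23, nhr-25 and nhr-67 by position relative to the annotated 5′ end (x axis, bp, transcription to the right) and score (y axis): the optimal list (diamonds, pooled score) and the relaxed lists of replicate 1 (circles) and replicate 2 (squares). The promoter window and the gene body are shaded. nhr-23 and nhr-25 have 3 optimal summits each, with pooled scores of 62 to 119 and 62.5 to 70.6, and the panel of nhr-67 is empty.

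Of 10 receptors with relatives across animals, 4 were bound (interval 12.2% to 73.8%): nhr-23, nhr-25, nhr-48 and nhr-85. Scores at nhr-85 were 38.3 in replicate 1 and 30.7 in replicate 2 (pooled 65.3). The 6 unbound were nhr-67, nhr-6, nhr-8, nhr-41, nhr-91 and nhr-111. Of 14 receptors with known roles in metabolism, 5 were bound (35.7%, interval 12.8 to 64.9): nhr-49, nhr-68, nhr-64, nhr-69 and nhr-86. Scores were 45.7 and 43.7 in the replicates at nhr-64, which acts in fat metabolism (pooled 79.4), 36.3 and 40.5 at nhr-69 (pooled 75.9), and 36.1 and 25.1 at nhr-86, which senses a bacterial toxin (pooled 58.4). The 9 unbound members included nhr-66 and nhr-80, partners of NHR-49, nhr-62, which acts under dietary restriction, and nhr-10, the partner of nhr-68. Of the 10 receptors 1 lies on V, and of the 14 receptors 5 do. The intervals of both lists take in the share of all protein-coding genes, 19.2%, and that of all genes off V, 21.8%.

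Genes that work with these receptors followed no single pattern. None of 5 nuclear receptors with other names, daf-12, fax-1, odr-7, sex-1 and unc-55, had a promoter summit. In its gene body daf-12, which encodes the dafachronic acid receptor, had 3 summits, and unc-55 had 1. Of all genes off V, 7.31% had a summit in the gene body outside the promoter. Of 7 genes for partners or for ligand synthesis 3 were bound: cbp-1, which encodes a p300-type acetyltransferase, with a score of 3049 in replicate 1 and 2510 in replicate 2 (pooled 5546, rank 23), strm-1 with 183 and 185 (pooled 362) and din-1, a co-repressor of DAF-12, with 136 and 89.2 (pooled 222). The score at cbp-1 is over that of every nhr gene. Of 14 molting genes 2 were bound, myrf-1 (142 and 144, pooled 287) and blmp-1 (55 and 71.5, pooled 121). Of 6 genes listed as lipid genes of the NHR-49 pathway only acs-2, which encodes an acyl-CoA synthetase, was bound (143 and 173, pooled 315). The background for these counts is the 19.2% of all protein-coding genes, and lists of this size give wide intervals.

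Inside gene bodies, outside the promoter window, nhr genes off V carried many LSY-2 summits. There were 40 such summits in 24 nhr genes (8.92%, interval 5.80 to 13), against 6.37% of all protein-coding genes. Of the 24, 3 lay on V (1.80% of nhr genes there, interval 0.372 to 5.16), against 3.54% of all genes on V, and 21 lay elsewhere (20.6%, interval 13.2 to 29.7), against 7.31% of all genes off V. Of the 40 summits 36 were in introns, and 29 had a nearest summit among the strongest 6312 in both replicates (33 with any such summit within 200 bp). Their median score was 98.6, against 94.2 for the 1659 summits in gene bodies of all genes that lay in no promoter. The 40 had only to lie outside the promoter of their own nhr gene, so the medians follow different rules. These 24 genes were long, with a median of 6707 bp against 2309 bp for all nhr genes. Among genes of 5000 bp or more off V, 16 of 30 nhr genes had a body summit (53.3%), against 23.7% of the 2760 genes of that length. On V 0 of 8 such nhr genes had one, against 20.1% of the 473 genes of that length. These counts have no interval, and 8 genes are too few to show a difference on V.

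The highest score in any nhr gene was in an intron of nhr-19 on II, 1906 bp downstream of the 5′ end. It scored 441 in replicate 1 and 345 in replicate 2 (pooled 777, rank 322), while the promoter summit of the same gene, 35 bp upstream, had 38.2 and 36.4 (pooled 74.4). Body summits were most numerous in nhr-40 on X, which acts in muscle development, with 6 and none in its promoter. Its strongest, 5066 bp downstream, scored 123 and 116 (pooled 237) and lay 339 bp upstream of the start of a shorter transcript. The gene nhr-34 on IV had 4 body summits and no promoter summit. Its strongest (164 and 118, pooled 283) lay in a coding exon 14 bp from the start of a shorter transcript. At nhr-66, 4 weaker body summits were listed, up to a pooled 113.8 (66.5 and 44.4), and nhr-46 had 3, the strongest with 155 and 129 (pooled 282), 3653 bp downstream. Of the 40 body summits 13 lay in the promoter window of some annotated transcript of the gene, so a call on the outermost 5′ end alone leaves these out.

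**Figure D5:**
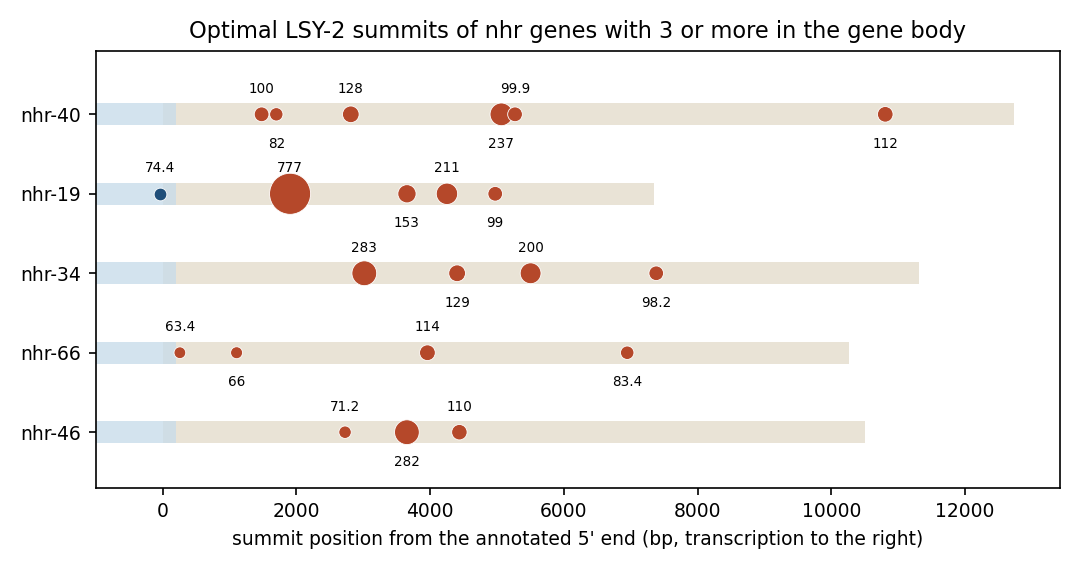
Optimal summits in the 5 nhr genes with 3 or more in the gene body, by position relative to the annotated 5′ end (x axis, bp, transcription to the right). Beige bars are gene bodies, blue bars the promoter windows; circles are summits (red in the body, dark blue in the promoter) with area in proportion to the printed pooled score. The summit of 777 in nhr-19 is the strongest, and only nhr-19 of the 5 has a promoter summit.

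Below the optimal threshold, further nhr genes had weak summits that both replicates shared. A relaxed summit of each replicate, within 200 bp of each other, lay in the promoters of 74 of 269 nhr genes (27.5%, interval 22.3 to 33.3), against 28.7% of all genes. On V the count was 34 of 167 (20.4%, interval 14.5 to 27.3), against 17.8% of all genes, and elsewhere 40 of 102 (39.2%, interval 29.7 to 49.4), against 32.3%. In these counts the interval of the nhr genes takes in the share of all genes, on V and elsewhere. In replicate 2 alone it does not: a relaxed promoter summit stood at 29.9% of nhr genes on V (interval 23.1 to 37.5) against 22.9% of all genes there, and at 50% of nhr genes elsewhere (interval 39.9 to 60.1) against 39.7%. In replicate 1 alone the shares were 28.7% on V (interval 22.0 to 36.2) against 23.4%, and 44.1% elsewhere (interval 34.3 to 54.3) against 40.1%. Of unbound nhr genes 20 of 153 on V (13.1%) and 17 of 79 elsewhere (21.5%) had such a pair of summits, against 7.35% and 13.8% of all unbound genes on and off V. The 5 with the highest pooled scores were nhr-40 (36.3 and 24.3 in the replicates, pooled 57.7), nhr-188 (24.8 and 28.7, pooled 55.7), nhr-237 (39.4 and 26.1, pooled 53.0), nhr-203 (26.1 and 25.2, pooled 52.2) and nhr-22 (23 and 28.9, pooled 50.2).

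One unbound gene on V, named after its values were seen, was high in both replicates. At nhr-57, a known target of the hypoxia factor HIF-1, replicate 1 had a summit 222 bp upstream with a score of 87.0 (rank 2532) and replicate 2 one 253 bp upstream with 102 (rank 1693). The pooled list had only a weak summit there, 56 bp upstream, with 22.5 (rank 15119), and the optimal list had none. Genome-wide, 23 sites had matched summits within the first 3156 ranks of both replicates and no optimal summit within 400 bp, and the one at nhr-57 was the only one in an nhr promoter. Such a gene counts as unbound here although both replicates list it among their stronger peaks.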

How the data were processed

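By the output types in the notes the authors deposited, they made a relaxed peak list from each replicate, one from both pooled, and an optimal list by the irreproducible discovery rate procedure. Each peak has a score the authors deposited, and a −log10 of a q-value, which was constant over the optimal list and was not used for ranking. Aligner, peak caller, thresholds: not given in the sources used here. Only the 4 lists on ce11 were used. Replicates are called biological by the labels; depth is unknown.

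Genes came from Ensembl release 115 (WBcel235, the same assembly as ce11) and symbols from RefSeq by WormBase identifier, for 46881 of 46926 genes. Summits were placed relative to annotated gene 5′ ends and matched between lists within 200 bp with python 3.11.15, pandas 2.3.3, numpy 2.4.6, scipy 1.17.1 and pysam 0.24.0; the placing was tested on simulated summits. Intervals are exact Clopper-Pearson 95% intervals, those of medians are from order statistics, and no p-value was computed. No protein table was used: the zinc finger spacing was searched in coding sequence translated from the genome.

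Members, the 6 gene lists and the motifs were chosen with earlier results of these data known. The text names all bound nhr genes, with values for the 10 strongest, the 5 strongest on V, the 3 described genes and bound list members, and the 5 unbound genes highest in the pooled relaxed list with a relaxed summit in both replicates. Genes with the most body summits, genes just outside the promoter, chromosome X, the stretch of V and nhr-57 were named after their values were seen. Alternatives were other promoter windows, the nearest gene only, all transcript starts, each replicate alone, and stricter peak sets.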

Additional observations from a re-analysis of the deposited data

How the results depend on the processing

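The share of bound nhr genes was lower on V than elsewhere under all 9 alternatives (2.40% to 10.8% on V, 9.80% to 29.4% elsewhere), and lower than that of all genes on V under all 9. None of the 9 used the full relaxed lists, where the direction against all genes on V was reversed. There 20.4% of nhr genes on V had a promoter summit shared by both replicates (interval 14.5 to 27.3), against 17.8% of all genes on V. The share off V was above that of all genes off V under 4 of 9, so that comparison had no stable direction. Of 27 counts, 23 stayed within 1.5 times the reported ones. With a promoter of 500 bp upstream to 100 bp downstream, 15 genes off V were bound in place of 23. With the strongest 50% of optimal peaks, 14 nhr genes were bound in place of 37, 4 on V and 10 elsewhere, which follows from their low scores. Using 1 replicate alone, without replicate 1 or without replicate 2, gave 37 to 41 bound genes in all, 16 on V either way, and 21 to 25 elsewhere, and 29 of the 37 were bound with either replicate. The median score of 113.9 lay between 111.4 and 121.2 under the 5 alternatives run for it. The starts of all transcripts added 5 genes, nhr-34, nhr-40, nhr-41, nhr-62 and nhr-66, none on V. In the right section of V, where 0 of 48 were bound, the 2000 bp window gave 2 and replicate 2 alone gave 1. No paired analysis was possible because the study has 1 group. Depth is unknown, so a peak missing from a list is not shown to be absent.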
